A study of Equus caballus with 12 samples.

Results

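The enzymes that remove superoxide and peroxide were examined at the mRNA level in mature horse oocytes. The genes considered were 10 (SOD1, SOD2, CAT, PRDX1, PRDX2, PRDX3, PRDX6, TXN, GPX4 and GSR), and a gene entered when the study's supplementary gene lists paired its symbol with an Ensembl identifier. This held for 6 of the 10 genes, namely SOD1 (ENSECAG00000008958), SOD2 (ENSECAG00000011797), CAT (ENSECAG00000019408), PRDX1 (ENSECAG00000008678), PRDX2 (ENSECAG00000011541) and TXN (ENSECAG00000013324), out of 11425 genes in the table. PRDX3, PRDX6, GPX4 and GSR had no pair in the lists used here and were not analysed here.

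Oocytes came from slaughterhouse ovaries, and all groups were matured in vitro, denuded and selected for a polar body before RNA extraction. In the fresh control group (FR, 5 samples) oocytes were never vitrified. In VMAT (3 samples) they were vitrified and warmed after in vitro maturation, and in VIM (4 samples, named VGV in the sample labels) they were vitrified at the immature, germinal vesicle stage with corona radiata cells, warmed and then matured. FR and VMAT oocytes were matured together and assigned to their group afterwards. Of 5 pools isolated per group, the authors kept 4 VIM, 4 VMAT and 5 FR pools after control of RNA amount and quality. A further VMAT sample was then removed for low RNA integrity, low concentration and few reads. Each sample was a pool of 23 oocytes on average, so differences between single oocytes were not seen, and the sources used here do not say whether pools shared mares. P-values therefore rest on the spread between pools and not between single oocytes. In limma that spread is partly estimated from the other genes.

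Superoxide, which leaks from the respiratory chain, is turned into hydrogen peroxide by the superoxide dismutases, SOD1 in the cytosol and SOD2 in the mitochondrial matrix. Hydrogen peroxide is then broken down by catalase (CAT) in peroxisomes and by the peroxiredoxins, of which PRDX1 and PRDX2 are mainly cytosolic and are reduced again by thioredoxin (TXN). A fully grown oocyte transcribes little, so its mRNA is largely a store laid down during growth, and freezing and warming of oocytes are known for oxidative stress.

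Values are normalized counts, that is reads per gene divided by the size factor that the authors computed for each sample with DESeq2. They were not divided by gene length, and levels were compared between groups within a gene and not between genes. The shallowest library, VMAT replicate 1, had 1636620 reads on genes, and the deepest, VMAT replicate 2, had 12166950. A floor of 3 reads was taken as the limit of detection, which is 9.34 normalized counts in the former and 0.376 in the latter. Such limits cover counting error only. Of 15 oocyte markers, 8 had an identifier, and their summed normalized count was 2657 to 5488 in VIM, 3785 to 8224 in VMAT and 3394 to 5805 in FR. Of the 17 markers listed for cumulus or granulosa cells only the hyaluronan synthase HAS2 had an identifier, and it was present in every group (641 to 2144 in VIM, 254 to 1755 in VMAT and 462 to 1239 in FR), as was PECAM1, the 1 of 6 blood and endothelial markers with an identifier (188 to 888, 82.5 to 1450 and 8.01 to 892). Their part in the results below was not tested. In a pool, fewer cells of a type and less RNA per cell cannot be told apart.

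The comparisons asked whether vitrification before (VIM vs. FR) or after maturation (VMAT vs. FR), or the stage at which it was done (VIM vs. VMAT), went with another level of these mRNAs. Each used limma on log2 of the normalized count plus 1 over all genes, and differential expression (DE) required a p, adjusted after Benjamini-Hochberg, no higher than 0.05 and a log2 fold change of 1 or more in size. With limma, 0 of the 6 antioxidant enzymes were DE in each comparison, against a background of 0% of the 7351 genes tested for VIM vs. FR, the 8305 for VMAT vs. FR and the 7627 for VIM vs. VMAT. At an unadjusted p under 0.05 in limma the count was again 0 of 6 in each comparison, where 3.78%, 3.62% and 2.98% of all genes were found. DESeq2 on recovered whole reads also called 0 of the 6 genes DE in each comparison, against 6.91%, 4.30% and 3.93% of all genes. These shares include genes without a p from DESeq2, which could not be called. They come from a fit made here, with size factors computed anew for the 2 groups compared. The study itself reported far fewer DE genes with DESeq2 in each comparison, so they are not the study's own background. With edgeR none of the 6 genes were called, against 0, 1 and 1 of all genes tested. At an unadjusted p under 0.05, DESeq2 held CAT in the first comparison (1 of 6), CAT and TXN in the second (2 of 6) and TXN in the third (1 of 6), where 17.7%, 15.4% and 16% of the genes with a p from DESeq2 (5359, 5827 and 5286 genes) were found.

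**Figure D1:**
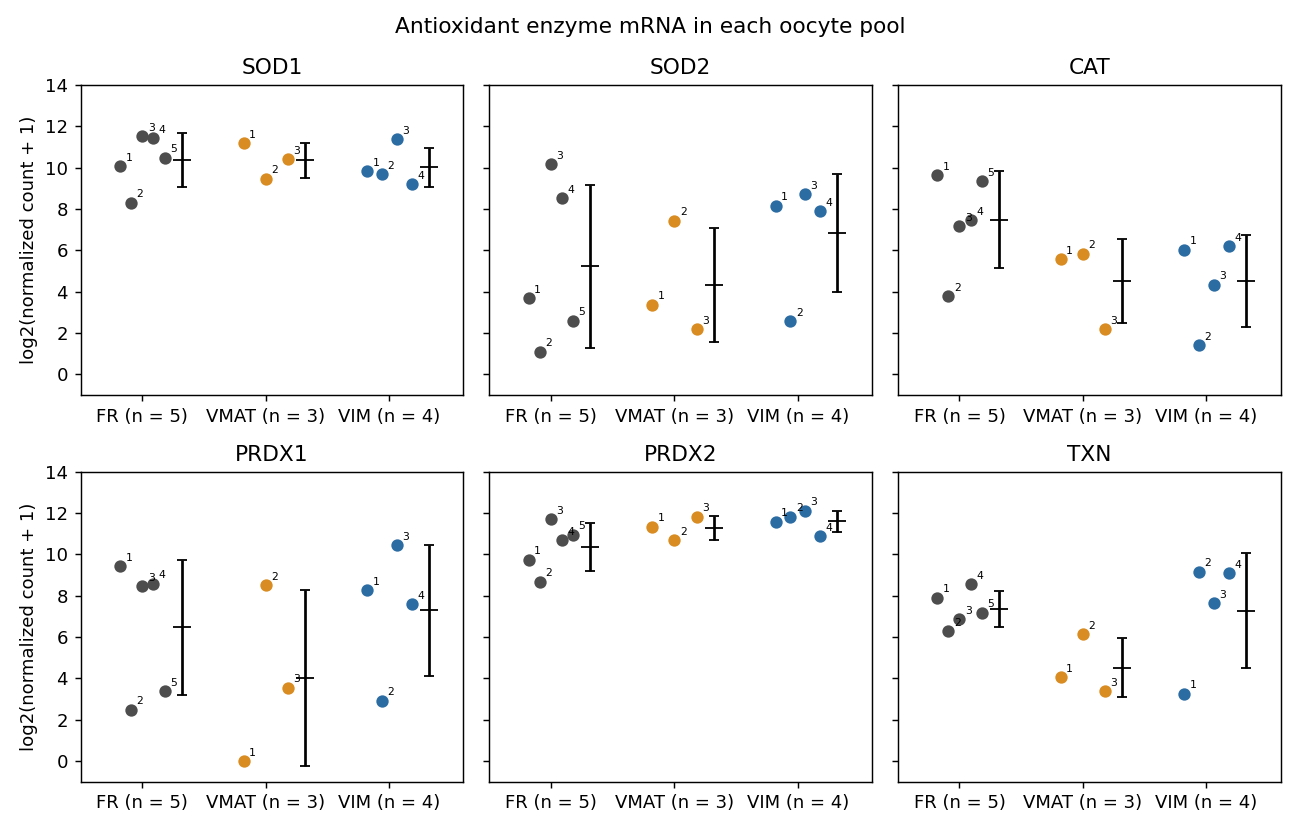
Normalized counts of the 6 antioxidant enzyme genes on the log2(value + 1) scale in FR (n = 5), VMAT (n = 3) and VIM (n = 4). Each point is a pool of oocytes with its replicate number, and the bars give the mean ± SD. SOD1 and PRDX2 were at 313 or more in every pool, whereas SOD2, CAT, PRDX1 and TXN had pools under 30 reads beside pools with far more.

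SOD1, the copper and zinc superoxide dismutase of the cytosol, was found in every pool with at least 274 reads. Its normalized count was 901, 817, 2674 and 585 in VIM, 2315, 706 and 1347 in VMAT, and 1072, 313, 2957, 2741 and 1426 in FR (replicates in numerical order). All groups overlapped, and both the lowest and the highest pool were FR pools. VIM pools averaged 1244 ± 963 (SD, n = 4), against 1456 ± 810 (SD, n = 3) for VMAT pools and 1702 ± 1124 (SD, n = 5) for FR pools. The spread among VMAT pools depended on the scaling, since as RPM, that is reads scaled to each library's own total on genes in place of the size factor, they were at 455, 463 and 467. Relative to FR, the log2 fold change was -0.34 for VIM (95% confidence interval -1.87 to 1.19) and -0.01 for VMAT (-1.80 to 1.77), and VIM relative to VMAT was at -0.33 (-2.37 to 1.71). The limma adjusted p was 0.961, 0.998 and 0.999. These intervals still allow a change of more than 1 on the log2 scale in either direction.

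SOD2, the manganese superoxide dismutase of mitochondria, was split within every group. Its normalized count was 285, 4.89, 416 and 237 in VIM, 9.34, 171 and 3.54 in VMAT, and 11.9, 1.14, 1157, 368 and 5.01 in FR. In reads, 6 of the 12 pools held fewer than 30, and 4 of them 3 reads or fewer. Above 100 were 3 of 4 VIM pools, 1 of 3 VMAT pools and 2 of 5 FR pools, so the groups overlapped over nearly their whole range. FR held both the lowest pool, with 1 read, and the highest, with 2066 reads. Log2 fold changes relative to FR were 1.61 for VIM (95% confidence interval -2.67 to 5.90) and -0.89 for VMAT (-5.85 to 4.07), and 2.50 for VIM relative to VMAT (-2.17 to 7.17). The exact two-sided permutation p was 0.508, 0.643 and 0.257, and the limma adjusted p 0.917, 0.986 and 0.968. The order of the group medians was VIM, FR and VMAT, and no neighbours in it differed beyond the spread between pools. Leaving out FR replicate 2 or VIM replicate 2 moved VIM relative to FR to 0.58 or 3.04, and leaving out VMAT replicate 3 or 2 moved VIM relative to VMAT to 1.43 or 4.05. The sign in VIM vs. FR was not stable, since edgeR and DESeq2 on the reads gave -0.50 and -0.39. The mean of the log2 values, which limma compares, was higher in VIM (6.83) than in FR (5.22). The mean normalized count was lower in VIM (236 ± 171, SD, n = 4) than in FR (308 ± 499, SD, n = 5).

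CAT, the peroxisomal enzyme that splits hydrogen peroxide into water and oxygen, had its highest levels in fresh oocytes. The normalized count was 64.5, 1.63, 19.3 and 72.4 in VIM, 46.7, 56.0 and 3.54 in VMAT, and 799, 12.6, 142, 173 and 651 in FR. All 7 vitrified pools were therefore below 4 of the 5 FR pools, and FR replicate 2, with 11 reads, lay among the vitrified pools. VIM pools averaged 39.4 ± 34.4 (SD, n = 4), against 35.4 ± 28.0 (SD, n = 3) for VMAT pools and 355 ± 347 (SD, n = 5) for FR pools. Relative to FR, VIM stood at a log2 fold change of -2.98 (standard error 1.78, 95% confidence interval -6.65 to 0.69) and VMAT at -2.94 (standard error 1.88, interval -6.75 to 0.87). Neither passed the test, with limma adjusted p of 0.902 and 0.95 and exact two-sided permutation p of 0.0952 and 0.143, where the smallest p that the samples allow is 0.00794 and 0.0179. Both comparisons share the FR pools and are not independent of each other. DESeq2 gave -3.20 and -3.37 with adjusted p of 0.108 and 0.179, and edgeR gave -3.17 and -3.24 with adjusted p of 0.411 and 0.518. Between VIM and VMAT the log2 fold change was -0.04 (interval -5.53 to 5.45). VIM pools held 1 to 105 reads of CAT and VMAT pools 15, 447 and 3.

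On the RPM scale CAT was at 0.471 to 26.7 in VIM, 1.23 to 36.7 in VMAT and 4.01 to 261 in FR. The 4 higher FR pools, from 58.4 upwards, were again above every vitrified pool.

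**Figure D2:**
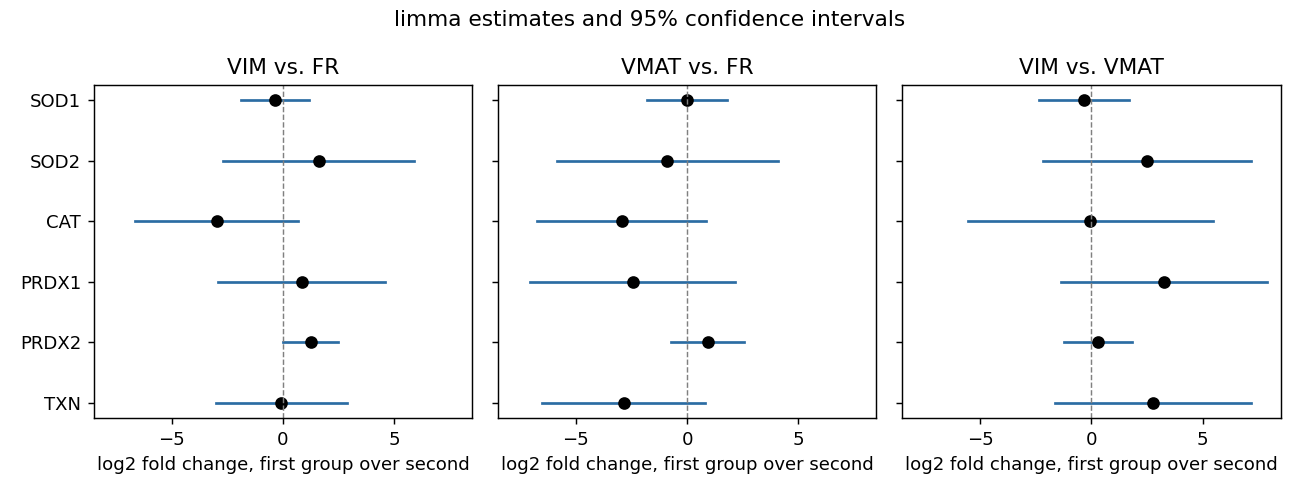
Log2 fold changes from limma (points, first group over second) with their 95% confidence intervals (lines) for the 6 antioxidant enzyme genes in the 3 comparisons. Every interval includes 0, and each rests partly on the spread of other genes. PRDX2 and SOD1 have the narrowest intervals of each comparison, and that of PRDX2 in VIM vs. FR reached from -0.01 to 2.49.

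PRDX2, a peroxiredoxin that reacts with very low amounts of peroxide, was found in every pool with at least 358 reads. Its normalized count was 3067, 3604, 4397 and 1886 in VIM, 2595, 1631 and 3609 in VMAT, and 854, 409, 3350, 1643 and 1988 in FR. Vitrified pools were between 1631 and 4397, and 2 of the 5 FR pools (replicates 1 and 2) lay below all of them, whereas FR replicate 3 was among the higher pools. VIM pools averaged 3239 ± 1054 (SD, n = 4), against 2612 ± 989 (SD, n = 3) for VMAT pools and 1649 ± 1138 (SD, n = 5) for FR pools. VIM relative to FR was at a log2 fold change of 1.24 (standard error 0.61, 95% confidence interval -0.01 to 2.49), with an unadjusted p of 0.0517, the smallest of the 18 tests on these enzymes, and an adjusted p of 0.902 in limma. The exact two-sided permutation p was 0.0794. PRDX2 had its identifier only from the study's gene sets. The 288 genes named only there had a median log2 fold change of 1.29 in VIM vs. FR. The value of PRDX2 was therefore not read as particular to it. VMAT relative to FR was at 0.92 (interval -0.71 to 2.56) and VIM relative to VMAT at 0.32 (interval -1.21 to 1.85), with limma adjusted p of 0.95 and 0.999. With DESeq2 the log2 fold change in VIM vs. FR was 0.97, with an adjusted p of 0.348. The order of the group medians was VIM, VMAT and FR, and neighbours in it did not differ beyond the spread between pools.

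PRDX1, the other cytosolic peroxiredoxin analysed here, did not share the even level of PRDX2. Its normalized count was 304, 6.52, 1386 and 192 in VIM, 0, 361 and 10.6 in VMAT, and 689, 4.58, 353, 379 and 9.31 in FR. Fewer than 30 reads were held by 5 of the 12 pools, with at least 1 such pool in each group, and VMAT replicate 1 held none, where a count of 0 allows a normalized count of up to 9.34. Relative to FR, VIM was at a log2 fold change of 0.84 (95% confidence interval -2.90 to 4.57) and VMAT at -2.45 (-7.07 to 2.17), and VIM relative to VMAT at 3.29 (-1.34 to 7.91). With limma the adjusted p was 0.961, 0.951 and 0.967, and the exact two-sided permutation p was 0.754, 0.411 and 0.314. Without VMAT replicate 1, VMAT relative to FR came to -0.44 and VIM relative to VMAT to 1.28, and without VMAT replicate 2 to -4.69 and 5.53.

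TXN, the small protein that hands electrons to the peroxiredoxins, was the only one of the 6 genes with groups that did not overlap. Its normalized count was 15.6, 68.9 and 9.43 in VMAT and 237, 76.6, 115, 378 and 144 in FR, so every VMAT pool was below every FR pool. In VIM it was 8.59, 570, 198 and 538, and 3 of 4 VIM pools were within or above the FR range. VMAT pools averaged 31.3 ± 32.7 (SD, n = 3), against 190 ± 121 (SD, n = 5) for FR pools and 329 ± 272 (SD, n = 4) for VIM pools. Groups without overlap were found for 1 of the 6 enzymes in VMAT vs. FR and 0 in the other comparisons, against 3.19% of all genes there, 1.59% between VIM and FR, and 4.50% between VIM and VMAT. VMAT relative to FR was at a log2 fold change of -2.84 (standard error 1.80, 95% confidence interval -6.50 to 0.82), and the adjusted p was 0.95 by limma and 0.219 by DESeq2. The SD of the log2 values of TXN itself was 1.43 in VMAT and 0.89 in FR, both smaller than that standard error. The limma interval draws on the spread of other genes, so it was wider than the spread of TXN alone would give. The exact two-sided permutation p was 0.0179, the smallest that 3 and 5 samples allow, and the only one of the 18 tests under 0.05.

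The separation of TXN depended on the scaling. VMAT replicate 1 held 5 reads of TXN and replicate 3 held 8, whereas replicate 2 held 550 reads and was divided by a size factor of 7.98. Replicates 1 and 3 each held 4 of the 6 enzymes at fewer than 30 reads (SOD2, CAT, PRDX1 and TXN), the most of any library. As RPM, VMAT replicate 2 was at 45.2, above FR replicate 2 at 24.4, and the groups overlapped (3.06 to 45.2 against 24.4 to 159). For TXN, VIM relative to FR was at -0.07 on the log2 scale (interval -3.02 to 2.87). VIM relative to VMAT was at 2.76 (interval -1.65 to 7.17, exact two-sided permutation p = 0.171), and VIM replicate 1, with 14 reads, was below every VMAT pool in normalized counts but above VMAT replicates 1 and 3 as RPM (3.56 against 3.06 and 3.27). From highest to lowest, the group medians ran FR, VMAT, VIM for SOD1 and CAT, FR, VIM, VMAT for PRDX1, and VIM, FR, VMAT for TXN. With limma no neighbours in these orders were DE. For TXN, FR and VMAT pools did not overlap in normalized counts. Without the filter, limma gave an unadjusted p of 0.0148 and an adjusted p of 0.825 for that pair.

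The 6 genes differed in how evenly they were held by pools of the same group. The pooled SD within groups was 0.88 on the log2 scale for PRDX2, 1.11 for SOD1, 1.83 for TXN, 2.24 for CAT, 3.36 for SOD2 and 3.48 for PRDX1. The median over the 2990 genes above 0 in all pools was 2.29, with a middle range from 1.50 to 2.90. Of those genes, 90.6% had a larger SD than PRDX2 and 84.1% than SOD1, against 9.56% for SOD2 and 6.49% for PRDX1. The SD runs lower at high mean normalized counts in the plot of SD against mean.

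**Figure D3:**
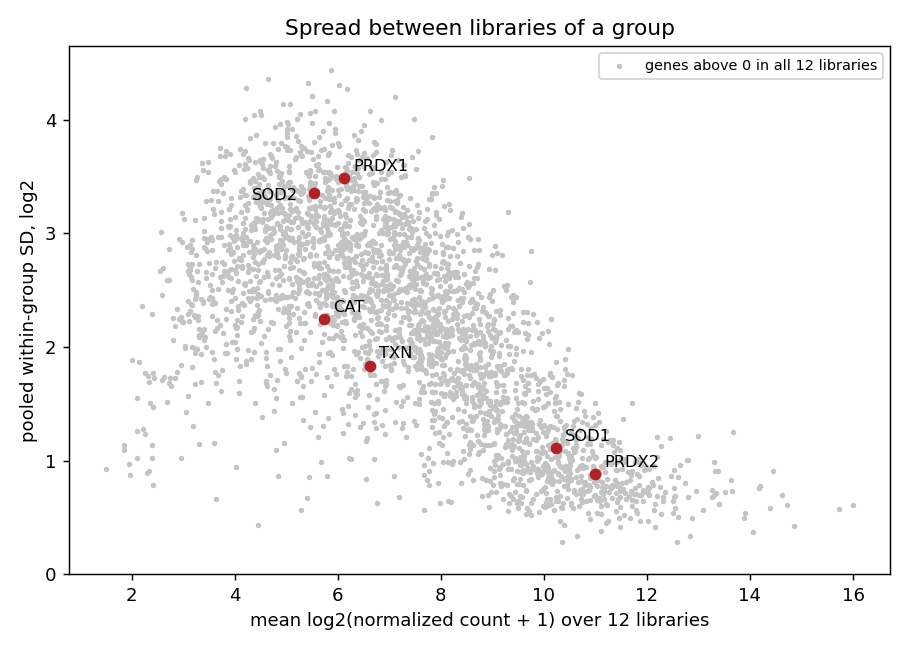
Pooled within-group SD against the mean, both of log2(normalized count + 1) over 12 libraries, for the genes above 0 in all libraries (grey, 2990 genes) and the 6 antioxidant enzyme genes (red). PRDX2 (0.88) and SOD1 (1.11) sit at the low end of the spread, and SOD2 (3.36) and PRDX1 (3.48) in its upper part. PRDX1 was at 0 in 1 library.

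Pools that were poor in SOD2 were mostly poor in PRDX1 as well. Both genes held fewer than 30 reads in the same 5 pools, namely VIM replicate 2, VMAT replicates 1 and 3, and FR replicates 2 and 5. In these pools SOD2 was at 1.14 to 9.34 and PRDX1 at 0 to 10.6, whereas in the other 7 pools SOD2 was at 11.9 to 1157 and PRDX1 at 192 to 1386. FR replicate 1 was the exception, with PRDX1 at 689 and SOD2 at 11.9. Pearson's r between them was 0.79 over the 12 pools, which share their library depth across genes. The 5 pools had 1636620 to 3577836 reads on genes (median 2447215) and the other 7 had 2529193 to 12166950 (median 3930366). The shallowest libraries, VMAT replicate 1, VIM replicate 2 and VMAT replicate 3 (1636620, 2123138 and 2447215 reads), were among the 5. FR replicate 5, with 3577836 reads, held 7 reads of SOD2 and 13 of PRDX1, whereas VIM replicate 3, with 2529193 reads, held 345 and 1150. The part of depth in this pattern was not tested. Pools poor in both genes were present in every group. CAT was also under 30 reads in 4 of the 5 pools (all but FR replicate 5) and TXN in 2 (VMAT replicates 1 and 3), and their part in the CAT and TXN results was not tested.

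**Figure D4:**
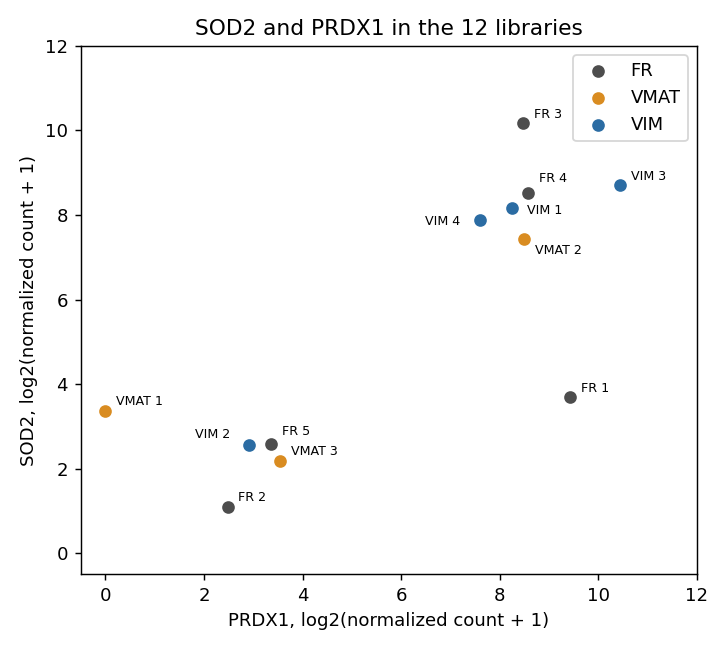
SOD2 against PRDX1 in the 12 libraries, both as log2(normalized count + 1), with group and replicate number beside each point. In the lower left corner lie 5 libraries, from all 3 groups, with 6 in the upper right, and FR replicate 1 is high in PRDX1 only.

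Among the 15 pairs of the 6 genes, r ran from -0.29 (CAT and PRDX2) to 0.79 (SOD2 and PRDX1), with a median of 0.26. SOD1 and PRDX2 had an r of 0.60, and PRDX1 and PRDX2 one of 0.09. For scale, the median r was 0.003 over the 3425653 pairs of named genes above 0 in at least 10 pools. These correlations run over the same 12 libraries and are given as a description.

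The named genes most like each enzyme over the 12 pools were searched among 2617 genes. For SOD2 they were USP31 (r = 0.96) and RBPMS2 (0.93), for PRDX1 the centrin CETN2 (0.96) and LMO3 (0.87), and for TXN BAIAP2L1 (0.92) and NSD2 (0.90). For CAT they were SRP14 (0.85) and OTUB1 (0.83), for PRDX2 SRPK2 (0.86) and NUP35 (0.86), and for SOD1 BDNF (0.81) and GSTP1 (0.80). GSTP1 is a glutathione transferase and was also on the wider list of antioxidant genes. These values were the highest of each search and were not tested.

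A wider list of 64 antioxidant genes covered the remaining peroxiredoxins, the thioredoxin and glutathione systems, transferases, NADPH supply and regulators. Of these, 15 had an identifier, the 6 enzymes above and 9 others. With limma, 0 of the 15 were DE in any comparison, against 0% of all genes tested. DESeq2 called 1 of the 15 in VMAT vs. FR, GPX2, against 4.30% of all genes tested. It called 0 of them in VIM vs. FR and in VIM vs. VMAT, against 6.91% and 3.93%. Relative to FR, the median log2 fold change of the 15 genes was -0.34 for VIM and -0.41 for VMAT, and it was 0.08 for VIM relative to VMAT, against -0.12, 0.01 and -0.08 over all genes tested. Over the 2625 genes with a name, which is the like set for this list, the medians were -0.24, -0.28 and 0.04.

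GPX2, a glutathione peroxidase best known from the gut epithelium, was at 401, 572 and 279 in FR replicates 3, 4 and 5 and at 1 read in each of FR replicates 1 and 2. VMAT pools held it at 0, 0.751 and 3.54, and VIM pools at 1.84, 1.63, 192 and 0.978. The VMAT pools thus lay at the level of the 2 lowest FR pools. VMAT relative to FR was at -4.62 on the log2 scale (95% confidence interval -9.99 to 0.75, limma adjusted p = 0.95, exact two-sided permutation p = 0.107), and DESeq2 gave -7.33 with an adjusted p of 0.0105. In edgeR the adjusted p was 0.362.

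GSTM3, a glutathione transferase of the mu class, was at 1261, 694, 699 and 1302 in VIM, 3261, 1386 and 4233 in VMAT, and 1286, 1271, 2378, 2703 and 4393 in FR. Every VIM pool was below every VMAT pool, also as RPM (201 to 523 against 640 to 1467), and 2 FR pools lay within the VIM range. VIM relative to VMAT was at a log2 fold change of -1.50 (interval -3.38 to 0.38, limma adjusted p = 0.967), with an exact two-sided permutation p of 0.0286, the smallest that 4 and 3 samples allow. Relative to FR it was -1.19 (interval -2.43 to 0.06, limma adjusted p = 0.902). GSTM3 was the 1 of the 15 genes whose VIM and VMAT pools did not overlap, beside the 4.50% of all genes given above.

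NFE2L2, the transcription factor that switches on many antioxidant genes, was at 811, 2160, 1389 and 2012 in VIM, 68.5, 1051 and 811 in VMAT, and 1921, 596, 345, 1693 and 1052 in FR. Only VMAT replicate 1, with 22 reads, stood below the other pools. VIM relative to VMAT was at a log2 fold change of 1.93 (interval -0.33 to 4.20, limma adjusted p = 0.967). GSTP1 was at 7.98, 9.78, 953 and 30.3 in VIM, 1528, 93.2 and 173 in VMAT, and 7.55, 5.72, 330, 257 and 240 in FR, with a log2 fold change of 2.17 (interval -1.49 to 5.82, limma adjusted p = 0.95) in VMAT vs. FR.

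The other 5 genes were TXNIP, which binds and inhibits thioredoxin, the glutaredoxin GLRX, the microsomal transferase MGST3, the redox-sensitive chaperone PARK7 and the ferritin heavy chain FTH1. Their 15 log2 fold changes lay between -2.14 and 0.30, with no limma adjusted p below 0.91. TXNIP, singled out after its values were seen, was even among the FR pools (4104 to 5071) and wider among the vitrified pools (2722 to 12921 in VIM and 2034 to 7901 in VMAT) in normalized counts. As RPM the VMAT pools were close to each other as well (1335 to 1861, against 1617 to 1932 in FR and 1128 to 3734 in VIM). PARK7 held 3 reads or fewer in 6 of the 12 pools. FTH1 has processed copies in mammalian genomes, and whether reads of such copies were counted with it was not tested.

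**Figure D5:**
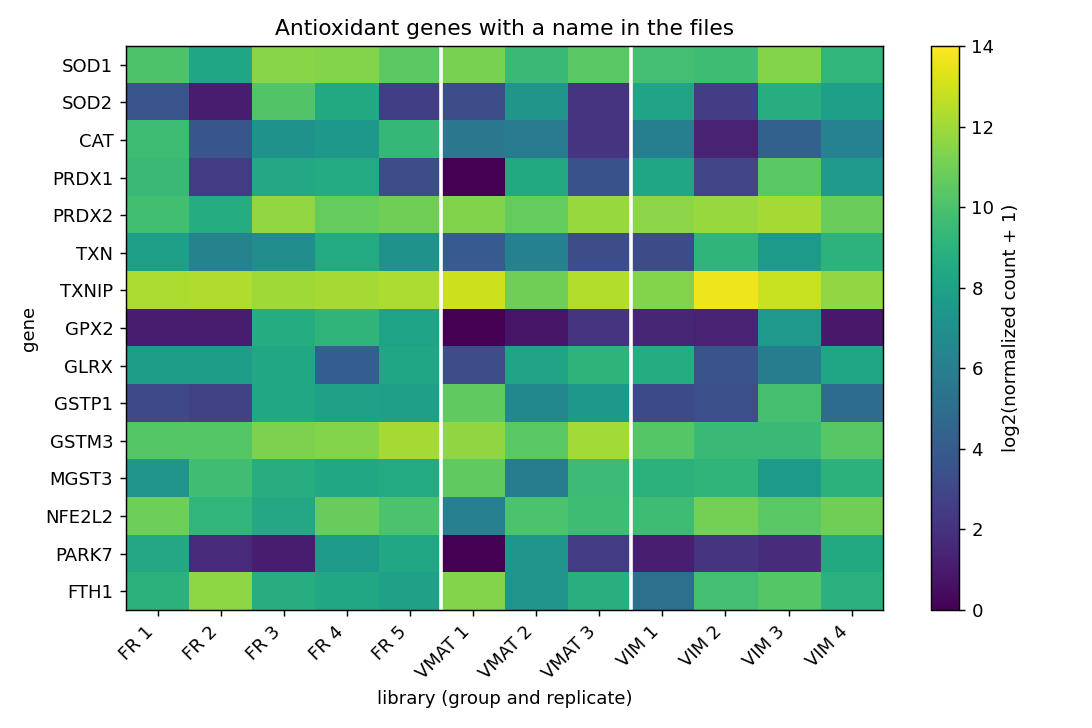
Log2(normalized count + 1) of the 15 antioxidant genes with an identifier (rows) in the 12 libraries (columns, grouped as FR, VMAT and VIM). TXNIP, PRDX2, SOD1 and GSTM3 are at 313 normalized counts or more in every library, whereas GPX2, PARK7, SOD2 and PRDX1 switch between dark and bright within each group, except GPX2, which is dark in all 3 VMAT libraries.

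Directions summed over these lists were not read as a result, because having a name went with the fold change. The supplementary gene lists were at hand only in part and were ordered by the authors' fold changes. In VIM vs. FR, 64.9% of the 1477 genes named only by the study's list of tested genes were lower in VIM, as were 9.03% of the 288 genes named only by the gene sets, against 50.4% of the 4726 genes without a name. SOD2 and TXN were named only by the former, PRDX1 and PRDX2 only by the latter, and SOD1 and CAT by both. In VIM vs. FR the median log2 fold change was -0.43 over the genes named only by the former and 1.29 over those named only by the latter. The fold changes of single genes carry the same limit.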

How the data were processed

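Libraries of 12 oocyte pools were made from the 3′ end of mRNA with unique molecular identifiers. Per the labels and the study's methods, the authors trimmed reads with Trim Galore, mapped them to EquCab3.0 with STAR, handled identifiers with UMI-tools, counted genes with RSEM and divided the counts by DESeq2 size factors. The deposited signal is this normalized count. It was a whole multiple of 1 step per sample (100.0% of values within 0.01), so whole reads were recovered and used for edgeR 4.0.16, DESeq2 1.42.0 and statements on depth. These reads are counts after the UMI-tools step, so depth here is not the raw number of sequenced reads.

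Groups were compared with limma 3.58.1 under R 4.3.3 (eBayes with trend) on log2 with a pseudocount of 1, fitted to the samples of the 2 groups compared and to genes detected in no fewer samples than the smaller group holds. P-values were adjusted over all genes. Exact permutation tests used all regroupings of the pools. The code of the fits was tested on simulated data with a smaller spread than that between these pools, so that test says nothing about power here. Alternatives were pseudocounts of 0.5 and 10, no filter, a minimum of 10, equal totals, all 12 samples, a replicate block and omission of each sample.

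Symbols came from the study's supplementary lists, which paired 2625 identifiers. Beside the 6 enzymes, genes of the wider list were named by the 2 smallest limma p in each comparison (a gene without overlap in 2 comparisons would also have been named), and like genes by Pearson's r. The members and lists were chosen with earlier results of these data known. Authors' fold changes and p-values in those lists were not used. No sequences or gene positions were used here. Figures were drawn with Python 3.11.15 and matplotlib 3.10.9.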

Additional observations from a re-analysis of the deposited data

Results flagged for a closer look

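Each enzyme gene was searched in VIM and in FR for a pool whose gap to the nearest other pool took up most of the range of its group (Dixon's test at 95%). Of 12 groups searched, 1 held such a pool, against 0.6 expected by chance if values were normally distributed, which was not tested. The search used normalized counts and not the log2 scale of the other tests, so a flag can depend on the scale. SOD1 in VIM replicate 3 had a normalized count of 2674, whereas the other VIM pools were between 585 and 901. On the log2 scale this pool was at 11.4 and the others between 9.19 and 9.82. The gap took up less of the range there, and the search was not run on that scale.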

How the results depend on the processing

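With each alternative that was run, 0 of the 6 enzymes were DE in each comparison, and 0 with each sample left out in turn. For the wider list the count was 1 of 15 with DESeq2 in VMAT vs. FR (GPX2), where 4.30% of all genes were called. It was 0 otherwise, samples left out in turn included. Of 306 fold changes of single enzymes under alternatives, 281 kept their direction, and 25, from 7 of the 18 comparisons of a gene, changed it. None passed both thresholds. The cause of the changed directions was not tested. An unadjusted p under 0.05 was found in VIM vs. FR with 5 of 18 alternatives for PRDX2 and 2 of 18 for CAT. In VMAT vs. FR it was found with 2 of 17 for CAT and 2 of 17 for TXN. In VIM vs. VMAT it was found with 1 of 16 for PRDX1 and 1 of 16 for TXN. In VIM vs. FR, SOD2 turned to -0.50 with edgeR and -0.39 with DESeq2, and TXN to 0.59 with edgeR, 0.79 with DESeq2 and 0.10 with a pseudocount of 10. In VIM vs. VMAT, CAT turned to 0.094 with edgeR, 0.22 with DESeq2 and 0.039 with a pseudocount of 10. With the replicate block, SOD1 in VMAT vs. FR turned to 0.38. With samples left out in turn, the log2 fold change in VIM vs. FR ran from -0.70 to 1.27 for TXN and from -0.21 to 2.30 for PRDX1, in VMAT vs. FR from -0.53 to 0.43 for SOD1 and from -2.44 to 0.35 for SOD2, and in VIM vs. VMAT from -1.21 to 0.99 for CAT and from -0.78 to 0.087 for SOD1. Relative to FR, CAT ran from -3.91 to -1.95 for VIM and from -3.87 to -1.77 for VMAT, with TXN between -3.64 and -2.27 in VMAT vs. FR, and PRDX2 between 0.82 and 1.58 in VIM vs. FR.

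Pools with the same replicate number did not deviate together (r from -0.07 to 0.04 over 10 pairs of pools), and the numbers were not treated as pairs. Pools with other numbers were at r from -0.08 to 0.10 over 37 pairs. With the large spread between pools, this check cannot show whether pools of equal number shared a session. Whether equal numbers mark a shared batch is not stated, and shared batches were not tested. With the replicate block 0 of the 6 enzymes were DE, as in the main fit, which called 0 of all genes tested. SOD2, PRDX1, CAT and TXN each held fewer than 30 reads in 3 to 6 of the 12 pools, and SOD1 and PRDX2 in 0.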
